A study of Mus musculus with 36 samples.

Results

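The nuclear genes for the subunits of oxidative phosphorylation were followed through polysome fractionation of the embryonic mouse cortex. Members were chosen by gene name: those beginning Nduf followed by a, b, c, s or v and a number (complex I, NADH dehydrogenase), Sdha to Sdhd (complex II, succinate dehydrogenase), names beginning Uqcr (complex III), Cox4 to Cox8 (complex IV, cytochrome c oxidase) and Atp5 (complex V, ATP synthase). The rule gave 89 of the 55487 genes in the count table: 40 of complex I, 4 of complex II, 8 of complex III, 19 of complex IV and 18 of complex V. Complexes were assigned by the start of the gene name alone. Genes such as Ndufa4 and Ndufa4l2 thus stand under complex I by name, which need not be the complex that holds their product. Another 13 names marked as pseudogenes were left out, of which Ndufb1-ps had 122598 read pairs over all libraries.

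Cortices of female E14.5 embryos (E, embryonic day) were lysed in pools of 2 embryos, and each clarified lysate gave an input library and, after a 15 to 50% sucrose gradient cut into 12 fractions, a monosome and a polysome library. The study compared heterozygous loss (LoF) and a heterozygous missense allele (T532M) of the X-linked RNA helicase gene Ddx3x. Heterozygotes made by Cre (conditional heterozygotes, cHet) were Emx1-Cre/+;Ddx3x lox/+ for LoF, beside Cre-negative Ddx3x lox/+ controls. For T532M they were Emx1-Cre/+;Ddx3x-T532M lox/+, beside controls with Emx1-Cre/+ and no floxed allele. Emx1-Cre acts in the progenitors of the dorsal forebrain and the cells derived from them, so interneurons born ventrally, vessels and meninges in the same lysate kept their alleles. There were 3 pools per cross, genotype and fraction, 36 libraries in all, each with 36999365 to 57935512 read pairs assigned to genes. Which gradient fractions made up the monosome and the polysome sample was not given in the sources used here.

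Levels are CPM (read counts scaled to library size) after TMM scaling, a normalization here across all 36 libraries, and are relative to the scaled size of each library. The TMM factors were 1.205 to 1.271 in input, 1.153 to 1.278 in monosome and 0.5759 to 0.7312 in polysome libraries. Relative to a plain share of the reads, they raise the polysome levels and lower the others. Ddx3x, the targeted gene, was at 153, 89.0 and 95.0 CPM in the 3 LoF control inputs and at 61.4, 115 and 90.8 CPM in the LoF cHet inputs. In the LoF monosome libraries Ddx3x was at 278, 337 and 275 CPM in controls and at 250, 175 and 193 CPM in cHet, and in the polysome libraries at 2481, 2061 and 2569 against 2218, 1697 and 1771 CPM. The T532M inputs held 49.2, 148 and 110 CPM of Ddx3x in controls and 241, 201 and 167 CPM in cHet, without overlap (log2 difference 0.97, adjusted p = 0.26), and the monosome libraries 297, 302 and 355 against 281, 292 and 356 CPM. The T532M polysome libraries held 3124, 3566 and 2344 CPM of Ddx3x in controls and 4158, 6005 and 5406 CPM in cHet. None of the 6 genotype differences of Ddx3x passed an adjusted p of 0.05 in edgeR's quasi-likelihood test. The inputs carried markers of cortical neurons (Tbr1, Neurod6 and others, 9 genes measured) at a summed 1996 to 3088 CPM. Ttr, the transthyretin gene of the choroid plexus, exceeded 10 CPM in the inputs of 4 of the 12 lysates: LoF control replicates 1 and 3, LoF cHet replicate 1 and T532M cHet replicate 1.

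Oxidative phosphorylation passes electrons from NADH and succinate along complexes I to IV to oxygen, and ATP synthase uses the proton gradient that this builds. Most subunits are encoded in the nucleus, translated on cytosolic ribosomes and imported, while a few hydrophobic core subunits are encoded and translated inside the mitochondrion. An mRNA engaged by several ribosomes sediments with polysomes and one with a single ribosome with monosomes, and a short coding sequence has room for fewer ribosomes.

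Coding sequences of short members are shown because coding length orders the fractionation results below. They are the whole coding sequences of Atp5e, the epsilon subunit of ATP synthase (chr2:174461072-174464105, minus strand), and Cox7c, a small subunit of complex IV (chr13:86044816-86046904, minus strand). The coordinates are those of the genes, in GRCm38, and capitals mark the start and stop codons.
Atp5e: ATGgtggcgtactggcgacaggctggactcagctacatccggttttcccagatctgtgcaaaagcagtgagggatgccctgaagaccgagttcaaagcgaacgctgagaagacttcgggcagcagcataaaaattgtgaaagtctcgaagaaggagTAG
Cox7c: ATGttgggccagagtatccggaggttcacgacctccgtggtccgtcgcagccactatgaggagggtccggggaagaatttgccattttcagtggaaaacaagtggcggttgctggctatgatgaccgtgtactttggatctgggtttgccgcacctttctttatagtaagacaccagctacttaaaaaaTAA

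Subunit c, which forms the rotating ring of ATP synthase, has 3 genes. Atp5g1 (chr11:96068852-96075670), Atp5g2 (chr15:102662864-102672352) and Atp5g3 (chr2:73908447-73911326), all on the minus strand of GRCm38, encode different import sequences and the same mature protein. The last 228 bases of the coding sequences are shown because the 3 genes differed in the monosome fraction; capitals mark the stop codon. Over these bases Atp5g1 differs from Atp5g2 at 34 positions and from Atp5g3 at 46, and Atp5g2 differs from Atp5g3 at 49, while the translated residues are identical.
Atp5g1: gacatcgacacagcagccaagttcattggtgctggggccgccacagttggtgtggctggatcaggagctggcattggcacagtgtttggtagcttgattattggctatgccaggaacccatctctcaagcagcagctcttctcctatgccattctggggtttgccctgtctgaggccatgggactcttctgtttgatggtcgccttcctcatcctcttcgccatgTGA
Atp5g2: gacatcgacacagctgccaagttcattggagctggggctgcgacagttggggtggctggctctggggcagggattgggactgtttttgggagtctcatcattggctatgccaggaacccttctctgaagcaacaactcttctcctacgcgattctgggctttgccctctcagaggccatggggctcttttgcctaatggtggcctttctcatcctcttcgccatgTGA
Atp5g3: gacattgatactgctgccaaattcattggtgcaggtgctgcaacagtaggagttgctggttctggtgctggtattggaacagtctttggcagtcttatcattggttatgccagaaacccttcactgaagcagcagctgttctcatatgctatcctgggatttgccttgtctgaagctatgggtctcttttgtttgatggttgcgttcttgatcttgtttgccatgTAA

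Nuclear respiratory factor 1 (NRF1), GABP of the ETS family and YY1 are transcription factors known for binding promoters of these genes. RefSeq promoter windows, 250 bases before to 50 after a start site in GRCm38.p6, were matched for 68 members. The letters CGCATGCG, a core of the NRF1 motif that reads the same on both strands, occurred in the windows of 9 of the 68 members (13.24%) and of 2.07% of 27025 genes. The 9 were Atp5g2, Atp5j, Atp5k, Atp5l, Cox6a1, Ndufa11, Ndufa8, Uqcr11 and Uqcrc1. AAGATGGC, searched on both strands as a YY1 site, occurred in 14.71% of members and 3.19% of genes, and CCGGAAGT, searched on both strands as an ETS site, in 7.35% and 4.31%. Stretches of 50 bases around the NRF1 core, in capitals, follow for a subunit c gene, a complex I gene and a small ATP synthase gene: Atp5g2 at chr15:102671068-102671117 (minus strand), Ndufa11 at chr17:56717692-56717741 (plus strand) and Atp5k at chr5:108434420-108434469 (minus strand). A match describes letters and was not tested as a binding site.
Atp5g2: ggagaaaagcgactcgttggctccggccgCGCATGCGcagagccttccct
Ndufa11: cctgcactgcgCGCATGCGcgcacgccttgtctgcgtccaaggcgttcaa
Atp5k: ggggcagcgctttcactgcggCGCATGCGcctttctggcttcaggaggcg

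The members were among the abundant mRNAs of the cortex, and 81 of the 89 had enough reads to be tested in each cross. Together the members made up 10001 ± 374 CPM of the LoF control inputs and 10289 ± 613 CPM of the T532M control inputs (SD, n = 3 each). Per kilobase of coding length the highest levels over the 6 control inputs belonged to Cox6b1, which lies where the cytochrome oxidase monomers of a dimer meet, at 1127 ± 75.6 CPM per kb. Uqcrh, the hinge protein of complex III, followed at 1116 ± 72.1, Atp5e at 1070 ± 53.7, Cox6c at 964 ± 56.9 and Ndufa4 at 866 ± 48.6 CPM per kb (SD, n = 6). Neighbours among the first 3 lay within each other's SD. Reads were counted over whole gene spans but divided by coding length alone, so a coding sequence that is a small part of its transcript gets a higher value. Cox6b1 has 261 coding bases in a transcript of 618, and Atp5b 1590 in 1916. The order of genes here, and of complexes below, holds for this divisor only.

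Among members of 10 CPM or more in the control inputs, the median level was 153.9 CPM per kb over 35 genes of complex I, 172.9 over 4 of complex II, 254.5 over 8 of complex III, 534.9 over 10 of complex IV and 445.3 over 17 of complex V. With the restricted isoforms and uncounted genes described next, the medians were 152.7 over 37 genes of complex I and 314.2 over 18 of complex IV. Ndufs1, the largest subunit of complex I and an iron-sulfur protein, was at 23.3 ± 2.08 CPM per kb. Sdha, the flavoprotein that oxidises succinate, was at 63.2 ± 5.69 and Atp5b, the catalytic beta subunit of ATP synthase, at 617 ± 34.7 CPM per kb (SD, n = 6).

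Isoforms known from muscle, testis, lung or hypoxic cells were low. Per kb of coding length Ndufa4l2 was at 13.95 CPM, Cox6b2 at 7.754, Cox4i2 at 2.135 and Cox7a1 at 1.757 CPM. Over all 36 libraries together Cox6a2, the muscle form of Cox6a1, had 8 read pairs, Cox8c had 1, Cox7b2 had 17 and Cox8b had 0. In the LoF control inputs Cox6a1 was at 163, 178 and 161 CPM, Cox7a2 at 187, 195 and 189 CPM, Cox7a2l, a supercomplex factor related to Cox7a2, at 196, 205 and 188 CPM, and Cox8a at 133, 150 and 133 CPM. These common forms stood far above their restricted partners in every one of these libraries.

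A count of 0 does not measure every member. Cox4i1, the common form of subunit 4 and needed in all cells, had 0 read pairs in all libraries, and its whole span (100%) is overlapped by the span of Galnt2l. Ndufa13, overlapped by Yjefn3, and Ndufb4c, overlapped by Mroh5, were likewise at 0. The counts were made over whole gene spans, so absence and the overlap cannot be told apart here, and these genes are not read as unexpressed. Smaller overlaps touched Ndufb9 (62.86% of the span), Ndufb8 (62.02%), Ndufb2 (37.21%) and Atp5o (27.32%).

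In control cortex most members had lower levels in the polysome libraries than in the monosome libraries. In LoF controls 67 of 81 members were lower in polysomes than in monosomes and 11 were higher at an adjusted p under 0.05, and in T532M controls the counts were the same, 67 and 11. The members' median log2 difference was -2.48 in LoF controls, against -0.31 over all 18556 genes, of which 44.9% were called lower and 36.4% higher. In T532M controls it was -2.17 (members) and -0.31 (all 18243 genes, 43.9% lower and 36% higher). All fold changes and adjusted p values here are from edgeR's quasi-likelihood test with Benjamini-Hochberg adjustment, without a block for the lysate.

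The same 11 genes were the higher ones in both crosses, and they are mostly the large catalytic and core subunits. Sdha was at 124, 134 and 141 CPM in the LoF control inputs, at 29.4, 38.9 and 30.8 CPM in monosomes and at 765, 635 and 746 CPM in polysomes, so that the fractions did not overlap. Its log2 difference between polysome and monosome was 4.43 ± 0.16 (SE) in LoF controls and 4.55 ± 0.15 in T532M controls, with adjusted p values of 1.2e-14 and 2.9e-14. Ndufs1 was at 26.8, 30.9 and 28.9 CPM in LoF control monosomes and at 406, 330 and 396 CPM in polysomes, a log2 difference of 3.70 in LoF and 3.84 in T532M controls.

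Both large subunits of the F1 head of ATP synthase were polysomal. Atp5b was at 170, 222 and 196 CPM in LoF control monosomes and 1431, 1420 and 1345 CPM in polysomes (log2 difference 2.82 in LoF, 2.85 in T532M). Atp5a1, the alpha subunit, was at 294, 381 and 343 CPM in monosomes and at 1965, 1834 and 1777 CPM in polysomes (2.44 ± 0.12 and 2.59 ± 0.13). The core proteins of complex III, Uqcrc1 and Uqcrc2, had log2 differences of 2.67 and 2.18 in LoF and of 2.71 and 2.28 in T532M controls. In complex I, Ndufv1, which carries the flavin that accepts electrons from NADH, had a difference of 2.10 and 2.06, Ndufa9 of 1.68 and 1.59 and Ndufa10 of 0.22 and 0.28, in LoF and T532M controls in turn. Also higher was the longer of the gene models named Atp5o, a low-count entry of its own, at 0.79 and 0.68. That model spans 242585 bases, overlaps Donson and Cryzl1 among others, and has no coding length here. Its 6399 read pairs over all libraries need not come from the Atp5o mRNA.

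At the other end stood the smallest subunits. Uqcr10, a small subunit of complex III, was at 75.2, 84.5 and 78.6 CPM in LoF control inputs, at 128, 130 and 127 CPM in monosomes and at 4.95, 5.30 and 4.58 CPM in polysomes. Its log2 difference was -4.71 ± 0.18 in LoF and -4.84 ± 0.15 in T532M controls, with adjusted p values of 2.3e-14 and 1.5e-14. Atp5md, a small membrane subunit of ATP synthase, followed at -4.54 and -4.66, Cox8a at -4.41 and -4.46, Atp5e at -4.32 and -4.39 and Ndufc1 at -4.21 and -4.44. Uqcr11 completed the 6 lowest in LoF controls at -4.16, and Ndufb4 in T532M controls at -4.21. In LoF controls each of the 6 lowest had a higher mean CPM in monosomes than in input.

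**Figure D1:**
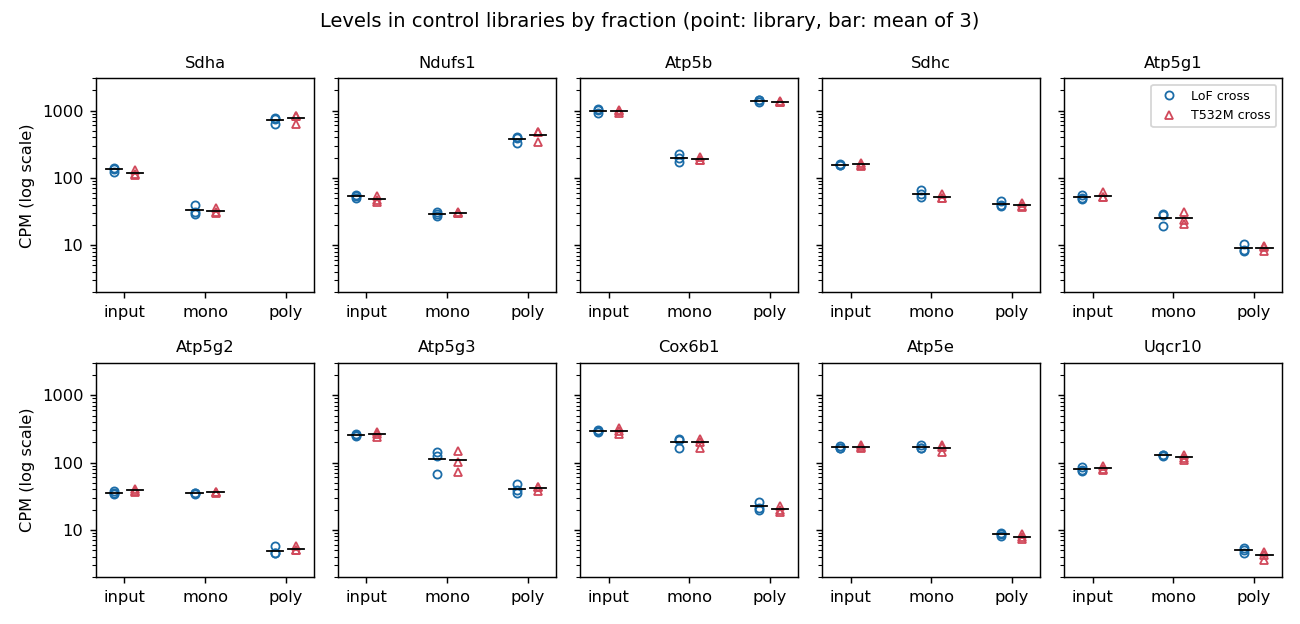
Level of 10 members in the input, monosome (mono) and polysome (poly) libraries of controls, in CPM on a log scale; circles are the 3 LoF control libraries, triangles the 3 T532M control libraries, bars the mean of 3. Sdha and Ndufs1 are highest in polysomes, while Atp5e and Uqcr10 fall below 10 CPM there.

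By complex, cytochrome oxidase had no member on the polysome side: 14 of 14 tested were lower in LoF controls, median -3.32, and 14 of 14 in T532M controls, median -3.70. The summed level of complex IV in LoF controls was 1673 ± 59.8 CPM in input, 1432 ± 140 in monosomes and 151 ± 20.6 CPM in polysomes (SD, n = 3). On the same TMM scale, which raises polysome levels relative to input, complex V was at 3917 ± 166 CPM in input and 3647 ± 127 CPM in polysomes, the latter through Atp5a1 and Atp5b. Of complex I, 5 members were higher and 32 lower of 37 in each cross (median -2.05 in LoF), of complex III 2 higher and 5 lower of 8 (-3.26), and of complex V 3 higher and 14 lower of 18 (-1.49).

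Within complex I the 7 core subunits, those with bacterial counterparts, divided into 3 higher, Ndufs1 and Ndufv1 among them, and 4 lower in both crosses. All 14 tested small accessory subunits were lower, with a median of -3.21 in LoF and -3.22 in T532M controls; Ndufa1 was at -3.66 and -3.61 and Ndufb3 at -2.85 and -2.81. In complex II only Sdha was higher. The membrane anchors Sdhc and Sdhd were lower, at -0.52 and -1.30 in LoF and -0.43 and -1.09 in T532M controls, and the iron-sulfur subunit Sdhb was not called, at -0.18 (adjusted p = 0.12) and -0.24 (adjusted p = 0.058). Uqcrfs1, the Rieske iron-sulfur protein of complex III, was level between the fractions at 52.2, 55.8 and 56.5 CPM in LoF monosomes and 53.5, 58.3 and 55.0 CPM in polysomes; the third member that passed in neither cross was Atp5pb, at -0.20 and -0.12.

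The order of the members followed coding length. Across the 78 tested members with an annotated coding sequence, the log2 difference between polysome and monosome correlated with log2 coding length with Pearson's r of 0.92 in LoF controls and 0.92 in T532M controls, and with Spearman's rho of 0.904 and 0.897. These are descriptions across genes measured in the same libraries, and genes are not independent replicates. Over all genes within the members' range of coding length r was 0.579 (10552 genes) in LoF and 0.57 (10409 genes) in T532M controls.

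In LoF controls the 14 members with up to 250 coding bases had a median of -4.06, beside -3.26 for the 133 genes of that length. The 17 members of 251 to 350 bases were at -3.45 beside -2.74, the 18 of 351 to 500 bases at -2.28 beside -2.05 and the 15 of 501 to 800 bases at -1.32 beside -1.21. The 14 members of 801 to 2184 bases were at 1.89, beside 0.15 for 7416 genes, of which 46.5% were below 0. The T532M controls gave medians of -3.99, -3.50, -2.22, -1.18 and 1.82 over the same classes. Only 3 of the 14 long members lay below 0: Ndufv3 at -2.05 in LoF and -2.17 in T532M controls, Atp5c1, the gamma subunit of ATP synthase, at -0.48 and -0.38, and Sdhb. Ndufv3, at 65.5, 53.7 and 63.2 CPM in LoF monosomes and 15.23, 14.02 and 15.03 CPM in polysomes, is annotated with a coding sequence of 1407 bases and with others of 315 and 261 bases, and gene counts do not separate these transcripts.

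**Figure D2:**
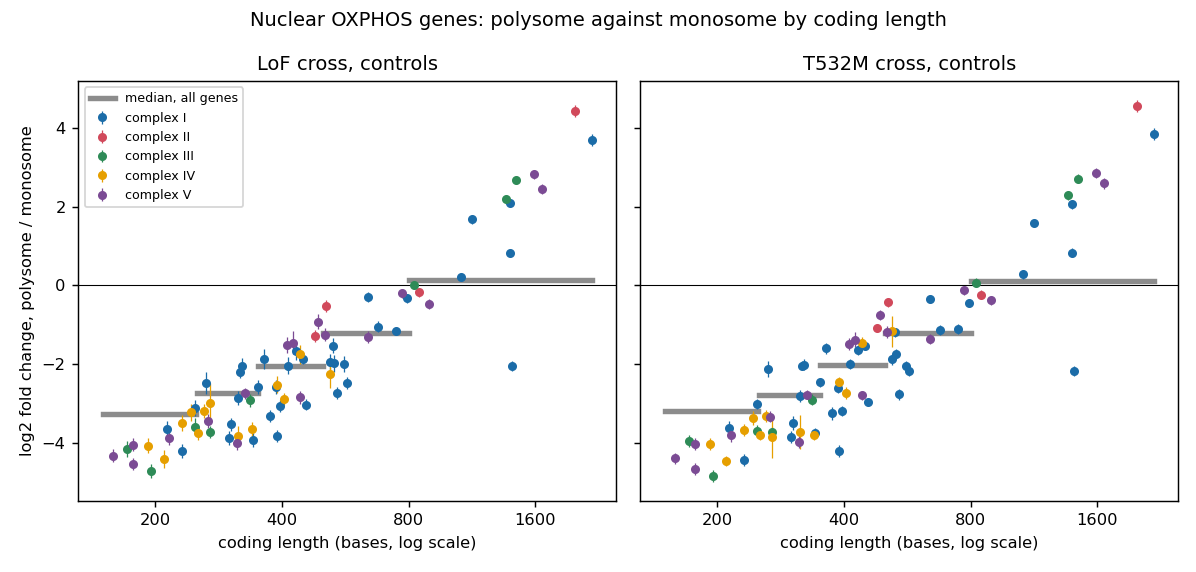
Log2 difference between polysome and monosome in controls (vertical axis, edgeR estimate, bars 1 SE) against coding length in bases (log scale) for 78 members, coloured by complex; grey bars give the median over all genes in 5 length classes. Members run from Uqcr10 at -4.71 to Sdha at 4.43 in LoF controls, and Ndufv3, at 1407 bases, lies apart from the other long members.

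Against the input, 73 of 81 members were lower in polysomes of LoF controls and 8 higher, median -2.94, where 42.8% and 36.5% of all genes were called. T532M controls had 73 lower and 7 higher, median -2.91, where 42.4% and 36.6% of genes were called. The estimates above 0 were the same 8 genes in both crosses: Sdha, Ndufs1, Atp5a1, Atp5b, Uqcrc1, Uqcrc2, Ndufv1 and the longer Atp5o model.

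Monosomes against input gave smaller differences. In LoF controls 44 members were lower and 5 higher in monosomes, median -0.52, where 30.6% and 32.2% of genes were called; in T532M controls 51 were lower and 5 higher, median -0.73, where 31% and 32.1% were called. Uqcr10 (0.70 in LoF, 0.49 in T532M), Ndufb4 (0.35 and 0.43), Atp5md (0.39 and 0.30) and Atp5l (0.34 and 0.35) were higher in both crosses. The number called higher depended on single libraries: 1 without LoF control input replicate 3, 3 without LoF control input replicate 1, 2 without monosome replicate 1 or 3 of those controls, and in T532M 3 without control replicate 2 of either fraction. Across the members r with log2 coding length was -0.769 in LoF and -0.709 in T532M controls, beside 0.048 and 0.091 over all genes in the members' range of coding length. In LoF controls the members' medians over the same 5 length classes, from short to long, were 0.02, -0.09, -0.82, -1.10 and -1.35, beside 0.28, 0.01, -0.15, -0.31 and -0.20 for all genes of each class.

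Other genes of the pathway and of protein synthesis give a frame for these values. Of the 10 tested subunits encoded in mitochondrial DNA, 10 were lower in polysomes than in monosomes, with a median of -7.31 in LoF and -5.63 in T532M controls; mt-Nd1 was at 3182, 5163 and 3434 CPM in LoF monosomes and at 29.7, 33.2 and 38.8 CPM in polysomes. All 16 genes of the citrate cycle and pyruvate dehydrogenase, whose products act in the same matrix, were higher in polysomes, median 1.60 in both crosses. Complex I assembly factors had 4 higher and 10 lower of 15, and assembly factors of complexes II to V 2 higher and 24 lower of 31, in both crosses. Regulators of mitochondrial biogenesis had 6 higher and 5 lower of 13. Cytosolic ribosomal proteins, another set of short mRNAs, had 79 lower of 81, median -3.26 in LoF and -3.05 in T532M controls. Of subunits outside the name rule, Cyc1, the cytochrome of complex III, was higher in polysomes at 0.52 and 0.46, and Cycs, the soluble cytochrome c, was lower at -1.77 and -1.75.

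Between genotypes no member passed the threshold in any fraction of either cross. In the T532M input, however, nearly all members were lower in cHet by estimate: 78 of 81, with a median log2 difference of -0.22, where the median over all 18243 genes was -0.001 and 0.00548% of genes were called. At an unadjusted p under 0.05 were 28 members and 1956 of all genes, and DESeq2 called no member either. Where such a count of members stands below without one over all genes, it is not read as a result about the members. The estimates below 0 were spread over the complexes: 36 of 37 in complex I, 4 of 4 in complex II, 8 of 8 in complex III, 12 of 14 in complex IV and 18 of 18 in complex V. The 3 above 0 were restricted isoforms: Cox4i2 (0.40), Cox6b2 (0.34) and Ndufa4l2 (0.05).

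For 45 of the 81 members (55.6%) all 3 T532M cHet inputs lay below all 3 control inputs, and for 0 all lay above; among all genes 6.85% lay wholly below and 6.46% wholly above. Summed over the members the inputs held 10289 ± 613 CPM in controls (9672 to 10898) and 9030 ± 124 CPM in cHet (8916 to 9162), without overlap (SD, n = 3 each). The smallest p values were those of 3 complex I genes. Ndufb11 was at 131, 111 and 121 CPM in controls and 107, 98.3 and 98.2 CPM in cHet (log2 difference -0.28 ± 0.09, adjusted p = 0.34). Ndufb10 was at 113, 93.5 and 102 CPM and at 92.6, 79.8 and 76.2 CPM (-0.34 ± 0.12, adjusted p = 0.36), and Ndufc1 at 76.8, 58.2 and 64.3 CPM and at 56.5, 53.6 and 49.0 CPM (-0.35 ± 0.12, adjusted p = 0.36). In all 3 genes every cHet library lay below every control library, though for Ndufb10 and Ndufc1 only just.

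Values of other lists in the same T532M inputs stand beside this result, and their part in it was not tested. Ribosomal proteins were lower by estimate in 79 of 81, median -0.23; citrate cycle genes in 13 of 16, median -0.13; and complex I assembly factors in 14 of 15, median -0.10. The mitochondrially encoded subunits had a median of 0.09, with 7 of 10 higher. Choroid plexus and hem markers were higher by estimate in 12 of 12, median 2.53. Their summed level was 19.3 to 20.2 CPM in controls and 12.9 to 282 CPM in cHet, with Ttr itself at 0 in 1 library of each. Meningeal markers were higher by estimate in 10 of 10, median 0.65. Their sums overlapped, at 36.4, 155 and 54.5 CPM in controls and 140, 103 and 82.2 CPM in cHet. Cortical neuron markers were lower by estimate in 7 of 9, median -0.20, with a summed 2643 to 3088 CPM in controls and 2379 to 2538 CPM in cHet. Hypoxia genes were higher by estimate in 8 of 9, median 0.21, with 594 to 632 CPM in controls and 634 to 753 CPM in cHet. Neither the cortical neuron sums nor the hypoxia sums overlapped between genotypes. Without the lysate of high Ttr, T532M cHet replicate 1, 77 of 81 members were still lower and the median was -0.24, and with a correction for GC content and transcript length 65 of 78 were lower with a median of -0.12, beside -0.01 over all genes. Leaving out 1 library at a time kept the median between -0.29 and -0.15. In bulk RNA, fewer cells of a type and less RNA per cell cannot be told apart.

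In the LoF input the members were slightly higher by estimate, 72 of 81, median 0.09 beside -0.01 over all 18556 genes, of which 0.0% were called. No member was at a p under 0.05, while 1996 of all genes were. For 7 members (8.64%) every cHet library lay above every control library, and for 0 below; among all genes these shares were 5.06% and 6.21%. The estimate rested on 1 library: relative to the control mean, the median member was 0.22 higher in LoF cHet replicate 1 and 0.01 higher in each of the others. In the same libraries ribosomal proteins were higher by estimate in 77 of 81, median 0.12, and choroid plexus and hem markers lower in 12 of 12, median -1.22. Microglial markers summed to 69.7 to 77.7 CPM in controls and 92.4 to 102.1 CPM in cHet (9 of 12 higher, median 0.09), and hypoxia genes to 632.3 to 681 and 691 to 715 CPM (7 of 9 higher, median 0.09). Ribosomal RNA gene models took 0.566, 1.70 and 1.43% of reads in controls and 4.53, 4.44 and 5.27% in cHet, and mitochondrially encoded genes 3.38, 2.71 and 2.39% against 1.72, 2.16 and 1.74%. These last 4 measures did not overlap between genotypes, and the part of any of them in the result was not tested. Ndufv3 had the smallest p, at 67.3, 71.6 and 69.7 CPM in controls and 88.2, 71.7 and 79.4 CPM in cHet (0.20 ± 0.12, adjusted p = 0.62), followed by Ndufa3 (0.18) and Ndufa12 (0.17). Without the 3 LoF lysates of high Ttr, which leaves 1 control whose spread is taken from the other groups, the median was -0.03 and 60 of 82 members were lower.

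**Figure D3:**
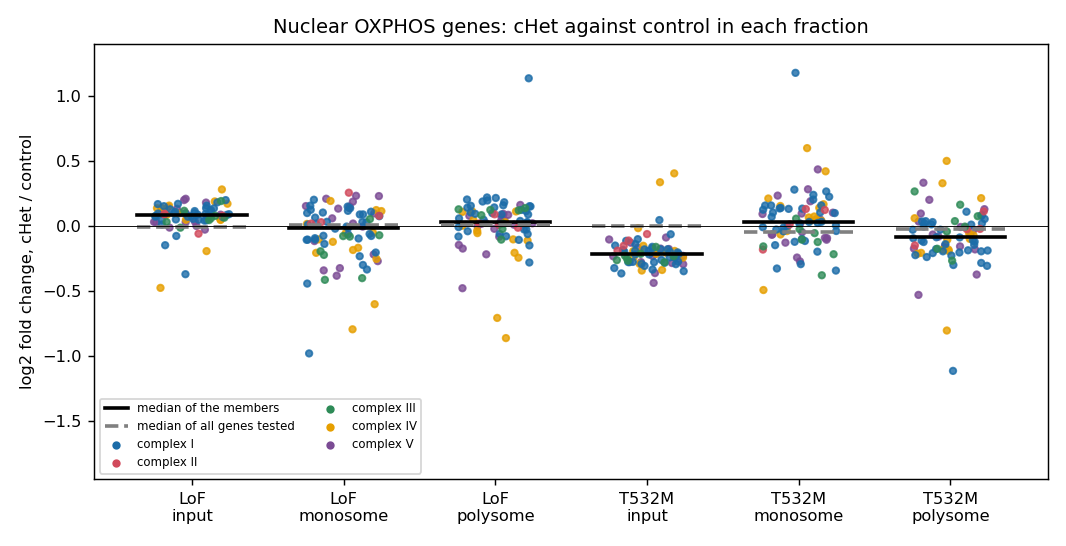
Log2 difference between cHet and control (edgeR estimate) for the 81 tested members in each fraction and cross, coloured by complex; solid bars are the median of the members and dashed bars that of all genes tested. The points of the T532M input lie below 0 for 78 of 81 members, with a median of -0.22.

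The difference between the crosses was tested directly. In the input the LoF effect minus the T532M effect was above 0 for 76 of 81 members, median 0.27 beside -0.03 over all 19121 genes, but no member passed the threshold, with 18 at an unadjusted p under 0.05 and 0.0105% of genes called. DESeq2 called 3 of them higher, and 0.844% of the genes to which it gave an adjusted p: Atp5g2 (0.43, adjusted p = 0.045), Ndufv3 (0.50, adjusted p = 0.048) and Ndufs8 (0.42, adjusted p = 0.049). In edgeR, Ndufv3 had 0.45 ± 0.17 (adjusted p = 0.15), Ndufv1 0.30 (adjusted p = 0.21) and Ndufs8 0.37 (adjusted p = 0.21). Ribosomal proteins had a median of 0.32 in the same contrast. The crosses also differ in their controls, which carry Cre in the T532M cross only, and cross and allele cannot be told apart in it.

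In polysomes the estimates lay nearer 0. There 56 of 81 were lower by estimate in T532M cHet, median -0.09 beside -0.02 over all genes (0.0% called, 4 members at p under 0.05); with the replicate number as a block 0.0219% of genes and no member were called. In LoF polysomes 52 were higher, median 0.03 beside 0.01 (0.0% called, 1 member at p under 0.05). DESeq2 called no member in either. In T532M polysomes 3.7% of members and 3.42% of all genes lay wholly above the controls in cHet, and 11.1% and 6.06% wholly below. Atp5o, the peripheral stalk subunit known as OSCP, had the smallest p in T532M polysomes: 16.37, 16.86 and 15.96 CPM in controls and 20.2, 20.9 and 20.3 CPM in cHet, without overlap (0.33 ± 0.12, adjusted p = 0.54). The longer Atp5o model went the other way at -0.53 ± 0.24 (adjusted p = 0.61), and Ndufb2 was at -0.28 (adjusted p = 0.60). In LoF polysomes the p values of the longer Atp5o model (-0.48) and Ndufs3 (0.19) were among the 3 smallest, both with an adjusted p of 1.0.

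Terms for the ratio of polysome to input, the closest measure here of a change in ribosome loading, called no member. In the T532M cross 66 of 81 were above 0, median 0.13 beside -0.03 over all genes (0.0% called, 6 members at p under 0.05). The members' median was below 0 in T532M cHet in both fractions, and further below in input. The ratio thus lay above 0 without a median rise in polysomes. Uqcr10 (0.55), Cox8a (0.46) and Atp5o (0.46) had the smallest p, each with an adjusted p of 0.79. In the LoF cross 50 were below 0, median -0.05 (0.0108% of genes called and 0 genes with the lysate as a block, 1 member at p under 0.05), led by the longer Atp5o model (-0.69, adjusted p = 0.72), Atp5k (-0.40) and Ndufs6b (1.51). Ndufs6b had only 391 read pairs over all libraries and has no coding length here. Its mean level in LoF polysomes was 0.047 CPM in controls and 0.106 CPM in cHet, so its fold changes rest on few reads. The difference between the crosses in polysomes had a median of 0.13, with 64 of 81 above 0, 1 member at p under 0.05 and 0.0% of genes called; Ndufs3 (0.32, adjusted p = 0.89), Ndufv3 (0.33) and Ndufa12 (0.31) had the smallest p.

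**Figure D4:**
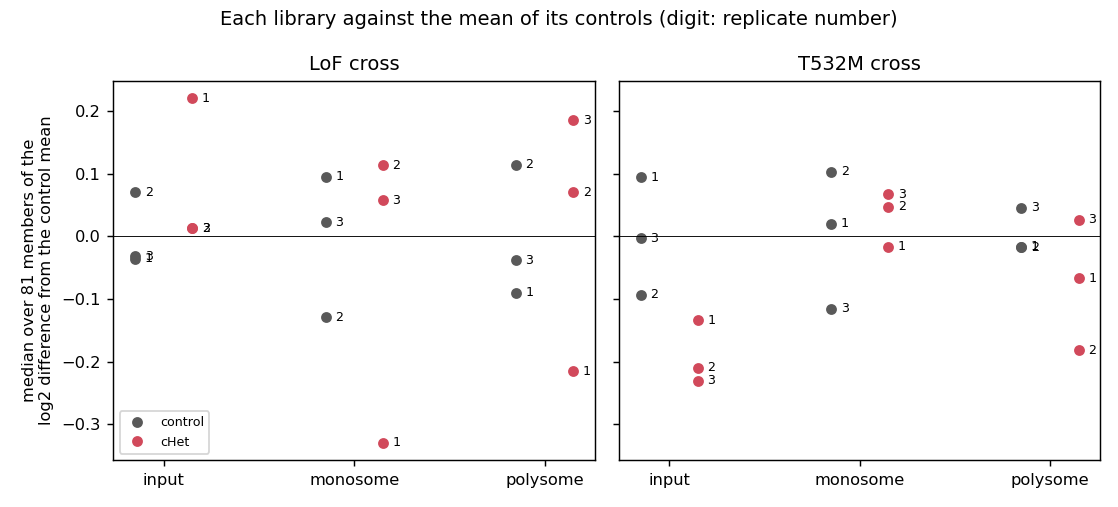
Median over the 81 tested members of each library's log2 difference from the mean of its controls (vertical axis, pseudocount of 1 CPM), by fraction; grey points are controls, red points cHet, and digits the replicate numbers. All 3 T532M cHet inputs lie below the controls, from -0.23 to -0.13, and LoF cHet replicate 1 is highest in input and lowest in monosomes, at -0.33.

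In T532M monosomes the long members were mostly lower by estimate. There 188 genes (1.03%) were called and no member was. An unadjusted p under 0.05 was reached by 10 members, a count that has none over all genes beside it. By estimate 48 of 81 were higher, median 0.03 beside -0.05 over all genes. Of the 14 members with 801 to 2184 coding bases, 13 were lower by estimate, median -0.20, while those of 501 to 800 bases had a median of 0.13 with 1 of 15 lower. From short to long, the other classes had 7 of 14, 7 of 17 and 3 of 18 lower, with medians of 0.01, 0.04 and 0.10. Over all genes in the members' range of coding length the 5 classes had medians of -0.04, 0.05, 0.09, 0.06 and -0.05. With the replicate number as a block, 349 genes (1.91%) were called and again no member. Uqcrc2 was at 66.1, 54.1 and 71.8 CPM in controls and 52.5, 47.9 and 47.8 CPM in cHet (-0.38 ± 0.12, adjusted p = 0.16). Ndufa9 was at 19.85, 19.28 and 21.97 CPM and at 15.7, 16.9 and 17.4 CPM (-0.29 ± 0.09, adjusted p = 0.19). In both genes every cHet library lay below every control library, as it did for 6.17% of members and 12.2% of all genes in these monosomes. Wholly above lay 2.47% of members and 9.01% of all genes.

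In the same T532M monosomes cortical neuron markers summed to 2834 to 3649 CPM in controls and 2614 to 2702 CPM in cHet (8 of 9 lower by estimate, median -0.31). Citrate cycle genes summed to 793 to 906 and 714 to 741 CPM (15 of 16 lower, median -0.16), and hypoxia genes to 213 to 248 and 287 to 305 CPM (9 of 9 higher by estimate, 2 of them called, median 0.22). Microglial markers summed to 28.6 to 31.8 and 32.1 to 39.2 CPM, and none of these 4 sums overlapped between genotypes. Choroid plexus and hem markers, higher by estimate in 12 of 12 (median 2.52), summed to 29.9 to 44.1 and 27.2 to 126 CPM. The part of these lists in the members' values was not tested.

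The call on these genes depended on the tool. DESeq2 called 4 members and 1.59% of genes lower, the members including Uqcrc2 (-0.40, adjusted p = 0.013), Ndufv1 (-0.35, adjusted p = 0.017) and Ndufa9 (-0.32, adjusted p = 0.017), and the GC and length correction called 2 members and 0.28% of genes lower, Ndufv1 among them. Without monosome replicate 2 of the T532M controls, edgeR called Uqcrc2 lower (-0.49, adjusted p = 0.047) and Atp5g3 higher (0.75, adjusted p = 0.021), where 0.364% of genes were lower and 1.14% higher. In the ratio of polysome to monosome 57 of 81 members were below 0 in T532M, median -0.13 beside 0.02 over all genes (0.0603% called, 12 members at p under 0.05). Atp5b (0.44 ± 0.16, adjusted p = 0.56), Cox5a (-0.53, adjusted p = 0.60) and Uqcrc2 (0.42, adjusted p = 0.61) had the smallest p there, and DESeq2 called Atp5b higher (0.50, adjusted p = 0.044), with 0.121% of genes. With the lysate as a block 22 genes, likewise 0.121%, were called in either direction and no member.

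In LoF monosomes 43 of 81 members were lower by estimate, median -0.01 beside 0.01, with 9 at a p under 0.05 and 0.0108% of genes called. The short members were the lower ones: 14 of 14 with up to 250 coding bases (median -0.24) and 12 of 17 with 251 to 350 (median -0.14). The members' differences had an r of 0.416 with log2 coding length, beside 0.032 over all genes in their range of coding length. Cox6b2 (-0.60 ± 0.19), Atp5md (-0.38 ± 0.13) and Uqcr10 (-0.41 ± 0.15) had the smallest p, all with an adjusted p of 1.00 when rounded. Atp5md was at 180, 174 and 179 CPM in controls and 128, 135 and 146 CPM in cHet, without overlap. In these monosomes every cHet library lay below every control library for 13 of 81 members, beside 4.9% of all genes. Wholly above lay 4 members, beside 5.66% of all genes. The ratio of polysome to monosome had 53 of 81 above 0 in LoF, median 0.07 (0.0% called, 3 members at p under 0.05), with the longer Atp5o model (-0.62), Ndufs6b (2.12) and Ndufa12 (0.39) at the smallest p. Between the crosses the monosome difference had a median of -0.09, 55 of 81 below 0, 6 members at p under 0.05 and 0.0% of genes called. Ndufs6b (-2.16, adjusted p = 0.31), Cox6b2 (-1.20, adjusted p = 0.40) and Ndufv1 (0.41, adjusted p = 0.40) had the smallest p. Ndufs6b was low in monosomes too, with means of 0.368 CPM in LoF controls and 0.185 CPM in LoF cHet. In the T532M cross these means were 0.153 and 0.354 CPM.

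Among members with a mean of 10 CPM or more, the widest spreads between replicates stood in the monosome fraction. Over all 81 tested members the widest was that of Cox6c2 in polysomes, at 0 to 0.078 CPM. Over the 73 members with a mean of 10 CPM or more over all libraries, the median within-group coefficient of variation (CV) was 7.1% in input, 10.8% in monosomes and 12.3% in polysomes, beside 9.15%, 8.77% and 10.4% over all such genes. Some of these members were low in polysomes, such as Atp5l at 0.77 to 1.43 CPM. The CV exceeded 20% for 6 (8.22%) in monosomes, beside 3.99% of all genes, and for 0 in input (16.5% of all genes) and 0 in polysomes (6.01%). Atp5g3 had the highest monosome CV at 32.2%, then Ndufc2 at 26.9%, Cox5a at 23.5%, Atp5g1 at 21.97%, Ndufb7 at 21.7% and Cox7b at 20.9%. Atp5g3 was at 143, 68.3 and 124 CPM in LoF control monosomes and at 59.8, 171 and 163 CPM in LoF cHet; in the T532M cross it was at 102, 151 and 71.8 CPM in controls and 147, 161 and 131 CPM in cHet. Atp5g1 had its lowest values in the same LoF libraries, control replicate 2 at 19.4 CPM and cHet replicate 1 at 17.8 CPM.

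Atp5g2 did not share this spread. It was at 35.5, 35.0 and 34.4 CPM in LoF control monosomes and at 40.4, 42.9 and 39.9 CPM in cHet, without overlap (0.23 ± 0.15, adjusted p = 1.00). There 4.94% of members and 5.66% of all genes lay wholly above the controls in cHet. Wholly below lay 13 of 81 members and 4.9% of all genes. Against the input, Atp5g1 was lower in monosomes at -1.01 in LoF and -1.15 in T532M controls, and Atp5g2 was not called, at -0.03 (adjusted p = 0.88) and -0.12 (adjusted p = 0.28). Against polysomes the order turned: Atp5g2 was at -2.84 and -2.79, and Atp5g1 at -1.52 and -1.49 and Atp5g3 at -1.46 and -1.37, with coding lengths of 441, 411 and 426 bases. Among the 3 windows searched, Atp5g2 held the NRF1 core and the windows of Atp5g1 and Atp5g3 did not.

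The LoF monosome result depended on the libraries kept. Without the 3 LoF lysates of high Ttr, which leaves control replicate 2 alone, 18 members were called higher and 1, Uqcr10, lower, where 2.88% of genes were higher and 2.07% lower, with a member median of 0.19; Atp5g3 led at 1.29 (adjusted p = 0.00023) and Cox5a was at 0.89. Without cHet replicate 1 alone the median was 0.08. This comparison therefore has a different direction for members such as Cox5a, at 104, 63.6 and 83.1 CPM in controls and 49.9, 122 and 115 CPM in cHet, depending on which pools are kept. Their part in the result was not tested.

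**Figure D5:**
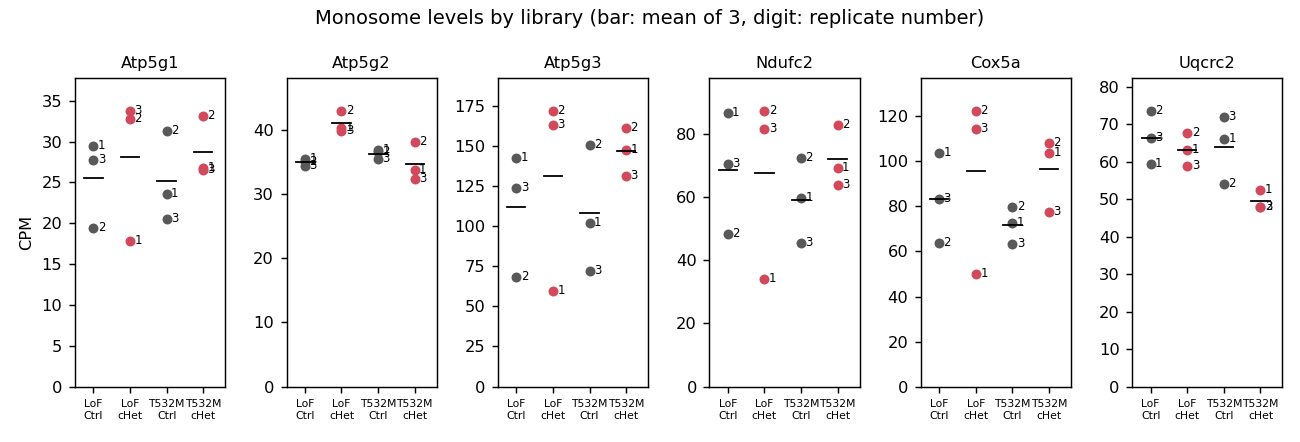
Level in each monosome library, in CPM on a linear axis from 0, for 6 members; digits are replicate numbers, bars the mean of 3, grey controls and red cHet. Atp5g3 runs from 59.8 to 171 CPM within the LoF cHet pools, whereas Atp5g2 stays between 39.9 and 42.9 CPM there.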

How the data were processed

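RNA-seq read pairs (50-base reads) were measured in 36 libraries of embryonic mouse cortex. The deposited table holds raw counts that the authors made with featureCounts 2.0.3 over whole gene spans with strand setting 2 and the GENCODE M25 annotation, per the file headers; STAR 2.7.11a, FastQC 0.11.7, Subread 2.0.3 and DESeq2 1.34.0 stand in the submitters' processing notes. Whole spans include introns, and reads that fall in overlapping genes can be lost.

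Counts were analysed in edgeR 4.0.16 (R 4.3.3) with filterByExpr, TMM scaling and the quasi-likelihood test, with one term per group and no block, on the 18 libraries of each cross. Differences between crosses, and the printed CPM levels, used all 36. Benjamini-Hochberg adjustment ran over all genes tested, with a threshold of 0.05, and the code was tested on simulated data. Depth was 36999365 to 57935512 read pairs. The p-values rest on the spread within groups of 3 pools, estimated jointly over all groups of a fit. In that estimate the fractions of a lysate count as independent libraries. Members and lists were chosen with earlier results of these data known, so lists are described by counts and medians.

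Genes named in genotype comparisons are the 3 members with the smallest p where fewer than 5 passed; in the control fractions, the 6 highest, the 6 lowest and any on the other side of 0 from the median; and further fixed anchors, isoform pairs and the 5 most abundant per coding length. Other genes and libraries singled out for their values (Atp5g2, Ndufc2, Ndufb7 and Cox7b in monosomes, and the members called by other settings) were chosen after their values were seen. Values of 1 member are not reported here. Alternatives were DESeq2 1.42.0 as test and as size factors, no filter on low counts, mitochondrial and ribosomal RNA genes left out, fits of the compared groups only, a block for the replicate number (for the lysate between fractions) and each library left out. The labels do not say that a number marks a shared litter or day. Deviations from the group means of same-numbered T532M control and cHet libraries correlated over 0.1 in all 3 pairs in monosomes (0.28 to 0.32) and polysomes (0.16 to 0.56), and fractions of 1 lysate are paired by design. The main fits, which give the p values unless another test or setting is named, leave out this pairing and treat the libraries as independent. Fits with a block are the alternative. A GC and transcript length correction (mgcv 1.9.3) and leaving out 4 lysates with over 10 CPM Ttr were chosen after seeing the data.

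Coding sequences and lengths are from the GENCODE M21 annotation of GRCm38, and promoter windows from RefSeq (GRCm38.p6).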

Additional observations from a re-analysis of the deposited data

How the results depend on the processing

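Over all alternatives the members' median difference between polysome and monosome stayed from -2.53 to -2.39 in LoF and from -2.21 to -1.98 in T532M controls, and the T532M input median from -0.287 to -0.119. Fitting only the groups compared, 8 members were called higher in LoF control monosomes against input (5 as reported); leaving out 1 library gave 1 to 4, and 3 to 6 in T532M. With DESeq2's test 4 members were lower in T532M monosomes, 1 higher in the T532M ratio of polysome to monosome and 3 higher in the input difference between crosses, where none was reported. With the GC and length correction 2 were lower in T532M monosomes and the LoF monosome median was 0.0038. Leaving out 1 library, 0 to 1 members were called in either direction in T532M monosomes. Medians near 0 changed sign when 1 library was left out: they ranged from -0.0989 to 0.0807 in LoF monosomes, from -0.0823 to 0.1379 in LoF polysomes, from -0.0301 to 0.0764 in T532M monosomes, from -0.1862 to 0.0705 for the monosome difference between crosses, and in LoF from -0.1607 to 0.0631 for polysome over input and from -0.0396 to 0.1691 for polysome over monosome.

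Without the lysates over 10 CPM Ttr the LoF medians turned to -0.0336 in input (Ndufa3 -0.001897, Ndufa12 -0.006652), 0.187 in monosomes (18 members higher, 1 lower), 0.0587 for polysome over input and -0.1497 for polysome over monosome, where 4 members (Atp5g3, Ndufc2, Ndufb7 and Cox5a) were lower; 1 control was left and the cause was not tested. Genes called ranged from 0 to 967 in LoF input, 0 to 940 in LoF monosomes, 0 to 70 in LoF polysomes, 0 to 242 in T532M input, 20 to 582 in T532M monosomes, 0 to 58 in T532M polysomes and 0 to 1572 for the input difference between crosses. With the replicate number as a block, no member was called between genotypes, the T532M input median was -0.2145 and 21 genes were called there. In LoF and in the T532M input most same-numbered pairs of control and cHet libraries deviated in opposite directions from their group means. The correlations for replicates 1, 2 and 3 were -0.63, -0.73 and -0.08 in LoF inputs and -0.68, -0.74 and 0.16 in LoF monosomes. They were 0.48, -0.05 and -0.15 in LoF polysomes and -0.48, 0.16 and -0.35 in T532M inputs. Depth limits the restricted isoforms, and in polysomes also members with low levels there. Among the 73 members with a mean of 10 CPM or more over all libraries, Atp5l was at 0.77 to 1.43 CPM in polysomes and Uqcr11 at 2.44 to 5.27 CPM.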

Other observations

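The subunits encoded in mitochondrial DNA did not share the members' direction in the LoF input. Of 10 measured, 7 were lower by estimate in LoF cHet, with a median log2 difference of -0.54, while the nuclear members had a median of 0.09; 4 were at an unadjusted p under 0.05 in edgeR's quasi-likelihood test and none passed the threshold. The mRNA of mt-Co1, the catalytic subunit of cytochrome oxidase, was at 12947, 11343 and 9667 CPM in the LoF control inputs and at 7228, 8957 and 7428 CPM in the cHet inputs, without overlap. In LoF monosomes 10 of 10 were lower by estimate, median -0.52, with 2 at an unadjusted p under 0.05. In the T532M input 7 of 10 were higher by estimate, median 0.09, with none at a p under 0.05, and mt-Co1 was at 8449, 10897 and 11174 CPM in controls and 13820, 9178 and 8801 CPM in cHet, which overlap.

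Cycs, the soluble electron carrier between complexes III and IV, had its low monosome values in the same LoF pools as Atp5g3 and Atp5g1. It was at 43.4, 22.7 and 36.5 CPM in the LoF control monosomes and at 16.3, 50.2 and 52.2 CPM in cHet, with control replicate 2 and cHet replicate 1 lowest. In the inputs of these pools Cycs lay between 69.1 and 74.6 CPM.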
